A study of Mus musculus with 8 samples.

Results

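The triple null of Scribble, Yap1 and TAZ was compared with what adding the separate changes of the Scribble null and the Yap1 Taz null predicts, gene by gene, in sorted mouse haematopoietic stem cells. The departure from additivity was the triple null minus the Yap1 Taz null, less the Scribble null minus wild type, on group means of log2(TPM + 1). TPM is the share of a library's transcripts that a gene holds, corrected for length and scaled to the same total in every library. A departure of 0 means that the fold changes of both losses multiply. The members are all 16064 of 33641 symbols that reached 1 TPM in 2 or more of the 8 libraries. All 4 groups came from C57BL/6 bone marrow and had 2 libraries each. The first group is wild type, the second lacks Scribble, the third lacks Yap1 and Taz, and the fourth lacks all 3 genes; genotype names below stand for the libraries so labelled. The mice carried Mx1-Cre, a recombinase behind an interferon-inducible promoter that is active in many tissues, and were injected with polyI:C on alternate days, 6 times in all, each dose being 10 mg/kg. Cells were collected 1 week after induction. polyI:C is a double-stranded RNA mimic that itself induces interferon, and the wild-type animals are described as carrying Mx1-Cre and given it too. The labels used here give neither age nor sex, and do not say whether the 2 libraries of a group came from separate animals or pools, so p-values reflect library-to-library spread alone, and that may be technical.

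Scribble is a scaffold protein of the basolateral polarity complex. Yap1 and TAZ, the product of Wwtr1, are co-activators that carry no DNA-binding domain of their own, act on target genes through TEAD factors and are held in the cytoplasm by the Hippo kinases. In a 2-by-2 design such as this one, additivity means that the triple null shows both changes, multiplied as folds. A gene changed by the same amount in all 3 null genotypes departs from additivity by that amount in the opposite direction, and its departure is then a difference between wild type and everything else. A gene changed in 1 or both of the other nulls and back near the wild-type level in the triple null departs as well, and the 2 patterns were separated by the sizes of the 3 changes.

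Sequencing depth cannot be read from TPM and is unknown here. Between 14024 and 14970 symbols reached 1 TPM per library. Stem cell markers were present in every library, Kit at 268 to 532 TPM, Slamf1 at 55.9 to 76.2 TPM and Hlf at 218 to 382 TPM, while Cd48, which the sorted population lacks, was at 1.21 to 3.30 TPM. Scrib was at 8.19 and 9.29 TPM in wild type, 6.25 and 7.63 in the Scribble null, 7.98 and 7.32 in the Yap1 Taz null and 14.5 and 7.54 in the triple null. Yap1 stood between 2.00 and 6.63 TPM and Wwtr1 between 0.730 and 5.32 TPM, and none of the 3 targeted genes was called for the departure or for any change from wild type. A whole-gene level counts reads outside a deleted part, so these levels do not check the labels.

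The departure was called for 102 of 16064 genes (0.635%) with limma and Benjamini-Hochberg adjusted p under 0.05, 60 of them higher than additive (0.374%) and 42 lower (0.261%). At an unadjusted p under 0.05, 2333 genes (14.5%) departed. The median departure of all genes was -0.15, and rescaling the libraries by the median ratio moved it to 0.01 and the calls to 65 higher and 26 lower. The 102 genes held 98 distinct rows of values, since 5 ribosomal pseudogenes share 1 row. Leaving out wild type 1 gave 44 calls and wild type 2 gave 53. Leaving out Scribble null 1 gave 60, Yap1 Taz null 1 gave 56, Yap1 Taz null 2 gave 48, triple null 1 gave 51 and triple null 2 gave 50. All 102 genes kept the sign of their departure in each of these fits and without Scribble null 2, which gave 128 calls.

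Direction went with the side of wild type on which the other nulls lay. In 54 of the 60 genes called higher, both the Scribble null and the Yap1 Taz null were below wild type, and in 40 of the 42 called lower both were above it. The contrast itself favours this, since the changes of both nulls enter it with a minus sign. The position of the triple null differed between the sides. Among the 40 genes with both nulls above wild type, the triple null lay at or below the wild-type mean in 16 and between wild type and the nearer null in 21. Among the 54 with both nulls below wild type, it had returned to or past the wild-type mean in 2 and lay between wild type and the nearer null in 38. The share of the mean change of the other nulls that was still present in the triple null was taken for each gene. Where both nulls were above wild type its median was 0.0897, against 0.717 over the 8019 tested genes of that kind. Where both were below, it was 0.772, against 0.591 over 3779 tested genes. Over all 11798 tested genes whose changes had the same sign in both nulls it was 0.675. These shares are descriptions of genes selected by their departure.

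**Figure D1:**
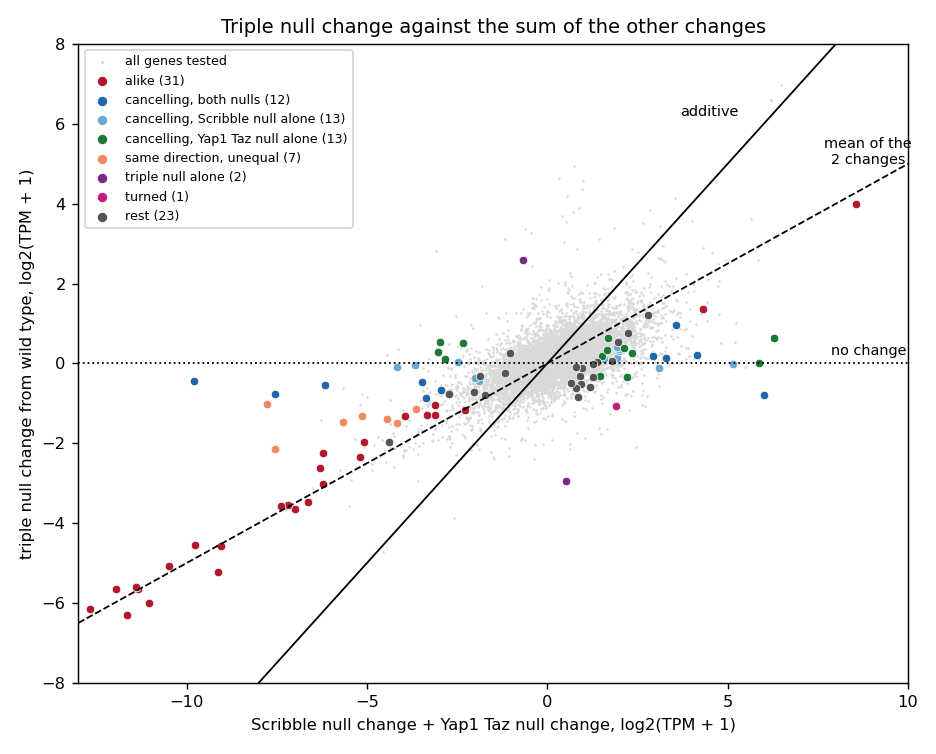
Each point is a gene, with the sum of its changes in the Scribble null and the Yap1 Taz null on the x axis and its change in the triple null on the y axis, both in log2(TPM + 1) relative to wild type. The solid line is additivity, the dashed line a triple null equal to the mean of the other changes, and the dotted line no change. The 31 genes changed alike lie near the dashed line. The 38 cancelling genes lie within 1 of the dotted line, as their rule requires, and not all are close to it.

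With a size limit of 1 on the log2(TPM + 1) scale, 38 called genes cancelled in the triple null, which means that the Scribble null, the Yap1 Taz null or both were past 1 and the triple null was under 1 and at most 0.5 of the larger change. In 12 of them both nulls were past 1, in 13 the Scribble null alone and in 13 the Yap1 Taz null alone, where size alone gave 124 (0.772%), 445 (2.77%) and 412 (2.56%) of the tested genes. Another 31 called genes had changed alike in all 3 null genotypes, of 188 genes by size (1.17%). The remaining calls were 7 genes changed in the same direction by unequal amounts, 2 changed in the triple null alone, 1 turned to the other side of wild type and 23 in none of these classes, where size alone gave 0.33%, 2.3%, 0.181% and 89.8%. None had opposite changes past 1 in the other nulls (0.0623%). Cancelling calls numbered 17 when wild type 1 was left out and 23 when wild type 2 was. They numbered 22 and 64 when Scribble null 1 or 2 was left out, 21 and 19 for Yap1 Taz null 1 or 2, and 20 and 18 for triple null 1 or 2. The number changed alike stayed between 19 and 24, being 19 when wild type 1 or triple null 1 was left out and 20 when triple null 2 was.

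The simple comparisons from the same limma fit give the background for single genes below. The Scribble null was higher than wild type for 0.591% of tested genes and lower for 0.71%, the Yap1 Taz null for 0.473% and 0.517%, and the triple null for 0.224% and 0.355%. The triple null was higher than the Scribble null for 0.112% and lower for 0.0996%, and higher than the Yap1 Taz null for 0.0685% and lower for 0.112%. Of the 38 cancelling genes 1 differed from wild type in the triple null, 10 differed between the triple null and the Scribble null, and 13 between the triple null and the Yap1 Taz null. These contrasts share libraries with the departure that chose the genes, so the counts are descriptions.

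Skil, a transcriptional co-repressor that binds Smad proteins and restrains TGF-beta signalling, cancelled in the triple null and was called with each library left out in turn. It was at 50.1 and 52.5 TPM in wild type, 142 and 151 in the Scribble null, 141 and 139.6 in the Yap1 Taz null and 58.6 and 57.6 in the triple null. The groups did not overlap: both other nulls lay far above wild type, while the triple null stood just above it. Multiplied fold changes would have put the triple null at 397 TPM. The departure was -2.75 (SE 0.18, limma adjusted p = 4.57e-04). Skil rose in the Scribble null and the Yap1 Taz null, by 1.49 and 1.43 (adjusted p = 0.00115 and 0.00145), and the triple null was lower than each of them (adjusted p = 0.0062 and 0.013), while its difference of 0.18 from wild type did not pass (adjusted p = 0.642). The gene spans chr3:31095058-31122577 in GRCm38.

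Of 26 measured genes of TGF-beta and BMP signalling, 2 were called lower than additive, Skil and the BMP receptor Bmpr1a, and none higher. The median departure of the list was -0.33, and 18 of 26 were below the median of all genes. Bmpr1a, a type I receptor kinase, was at 0.448 and 0.522 TPM in wild type, 2.88 and 2.16 in the Scribble null, 6.40 and 6.43 in the Yap1 Taz null and 1.98 and 1.82 in the triple null. Its departure was -2.59 (SE 0.43, limma adjusted p = 0.0492), but the triple null did not differ from the Scribble null beyond the spread (adjusted p = 0.828). Smad7, an inhibitory Smad, had values ordered like those of Skil, with 21.8 and 36.7 TPM in wild type, 85.3 and 71.9 in the Scribble null, 54.5 and 51.4 in the Yap1 Taz null and 27.2 and 42.1 in the triple null, and its departure of -2.07 did not pass (adjusted p = 0.084).

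Zfp69 and Clec9a, expressed at low levels, were also above wild type in both nulls and near it in the triple null. Zfp69, a KRAB zinc finger gene, was at 2.02 and 3.06 TPM in wild type, 10.8 and 9.32 in the Scribble null, 18.4 and 19.2 in the Yap1 Taz null and 3.92 and 2.33 in the triple null, a departure of -3.95 (SE 0.44, limma adjusted p = 0.00746). Clec9a, a lectin receptor of conventional dendritic cells, was at 2.43 and 3.89 TPM in wild type, 8.61 and 11.7 in the Scribble null, 14.1 and 13.5 in the Yap1 Taz null and 3.396 and 3.58 in the triple null, a departure of -3.15 (SE 0.42, limma adjusted p = 0.0191). In both genes the wild-type and triple null libraries overlapped and lay below all libraries of the other nulls. The rise in the Scribble null did not pass for Zfp69 or Clec9a (limma adjusted p = 0.0521 and 0.0735). Nor did the difference between the triple null and the Scribble null (adjusted p = 0.194 and 0.236). The triple null was lower than the Yap1 Taz null for Zfp69 (adjusted p = 0.0475), but this did not pass for Clec9a (adjusted p = 0.109). Clec9a shares 474 annotated bases with Clec1b on the same strand, so reads of the 2 genes may not be separated. Among markers of monocytes, macrophages and dendritic cells, Itgax was at 0 to 0.348 TPM, Csf1r at 0 to 0.748 TPM, Xcr1 at 0.648 to 1.66 TPM and Cd14 at 0.0425 to 6.84 TPM. Lyz2, at 176 to 292 TPM, held most of the summed level of that list. Fewer cells of a type and less RNA per cell cannot be told apart in such bulk libraries.

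The immediate early genes, transcription factors and feedback regulators that cells induce within minutes of a stimulus, lay on the lower side of additivity. Of 31 measured members of the list, 5 were called lower than additive (Egr1, Nr4a2, Nr4a1, Btg2 and Zfp36) and none higher. Unlike the call of Skil, each of these calls was lost in some of the fits that left a library out. Zfp36 and, below, H2-D1 are named after their values were seen. The list median of the departure was -0.60 against -0.15 for all genes, and 26 of 31 members were below the median of all genes. In 21 of the 31 both the Scribble null and the Yap1 Taz null were above wild type, as in 8019 of 16064 tested genes, while the list median of the triple null was -0.09. Rescaling by the median ratio left 24 below the median of all genes, and quantile normalization 27.

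Egr1, a zinc finger factor at the top of the serum response, was at 504.7 and 515 TPM in wild type, 1074 and 1146 in the Scribble null, 871 and 1009 in the Yap1 Taz null and 753 and 747 in the triple null. It rose in the Scribble null and the Yap1 Taz null (adjusted p = 0.0027 and 0.0103), and all triple null values lay between wild type and both. The departure was -1.44 (SE 0.15, limma adjusted p = 0.00546), and additivity would have given 2040.0 TPM. The nuclear receptor Nr4a2 was at 278 and 306 TPM in wild type, 404 and 371 in the Scribble null, 493 and 561 in the Yap1 Taz null and 221 and 242 in the triple null. Its triple null libraries were the lowest of the 8, and the departure was -1.59 (SE 0.17, limma adjusted p = 0.00654). Nr4a1, its paralogue, was at 471 and 433 TPM in wild type, 573 and 641 in the Scribble null, 639 and 661 in the Yap1 Taz null and 416 and 420.2 in the triple null, and departed by -1.06 (SE 0.15, limma adjusted p = 0.0247). Btg2, an antiproliferative co-factor of mRNA deadenylation, was at 119 and 142 TPM in wild type, 156 and 169.6 in the Scribble null, 207 and 190.2 in the Yap1 Taz null and 103 and 80.7 in the triple null, and departed by -1.44 (SE 0.23, limma adjusted p = 0.0403). For Nr4a1, Nr4a2 and Btg2 no change of the triple null from wild type passed the test. The triple null of Nr4a2 was lower than the Yap1 Taz null (adjusted p = 0.0151), and for Egr1 neither difference between the triple null and another null passed.

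Chaperone genes gave 2 calls among 28 measured genes of heat shock and the unfolded protein response, both lower than additive. Hsph1, a co-chaperone of the Hsp70 proteins, was at 244 and 247 TPM in wild type, 557 and 565 in the Scribble null, 404 and 443 in the Yap1 Taz null and 292 and 317 in the triple null, a departure of -1.66 (SE 0.15, limma adjusted p = 0.00247). It rose in both nulls (adjusted p = 0.00172 and 0.0163), and the triple null was lower than the Scribble null (adjusted p = 0.0212). Hspa1a, an inducible Hsp70, was at 235 and 218 TPM in wild type, 279.7 and 279.9 in the Scribble null, 288 and 289 in the Yap1 Taz null and 158 and 163 in the triple null. Its triple null was lower than both nulls (adjusted p = 0.0347 and 0.0388), and its departure was -1.15 (SE 0.15, limma adjusted p = 0.0177). Reads of Hspa1a and its neighbour Hspa1b, a near copy, may have been split by the counting. Dnajb6, an Hsp40 co-chaperone outside that list, was at 180.3 and 197 TPM in wild type, 379 and 378 in the Scribble null, 257 and 299 in the Yap1 Taz null and 232 and 181 in the triple null, and departed by -1.44 (SE 0.21, limma adjusted p = 0.0277). The list as a whole had 14 members above and 14 below the median of all genes.

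In some genes the larger change belonged to 1 of the other genotypes, and the triple null had less of it or none. Gdpd3, a phosphodiesterase that makes lysophosphatidic acid, was at 117 and 115 TPM in wild type, 22.8 and 16.4 in the Scribble null, 94.0 and 152 in the Yap1 Taz null and 108 and 127 in the triple null. It fell in the Scribble null (adjusted p = 0.0028), and the triple null was higher than the Scribble null (adjusted p = 0.00701), with a departure of 2.50 (SE 0.35, limma adjusted p = 0.0231). Chd9, a chromatin remodelling helicase, was at 448 and 453 TPM in wild type, 575 and 522 in the Scribble null, 1181 and 1222 in the Yap1 Taz null and 680.2 and 723 in the triple null. It rose in the Yap1 Taz null by 1.41 (adjusted p = 4.43e-04) and in the triple null by 0.64 (adjusted p = 0.0434), and departed by -1.06 (SE 0.14, limma adjusted p = 0.0196). Klk1b22, a kallikrein-related peptidase, was at 1.74 and 1.97 TPM in wild type, 2.06 and 2.46 in the Scribble null, 122 and 172 in the Yap1 Taz null and 2.24 and 1.52 in the triple null. Its departure of -5.86 (SE 0.42, limma adjusted p = 5.51e-04) rests on the 2 Yap1 Taz null libraries.

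The Yap1 Taz null libraries also stood apart in sex-linked genes. Eif2s3y, Kdm5d and Ddx3y, which lie on the Y chromosome, were called higher than additive by 3.29, 2.95 and 2.86, and Eif2s3y was at 4.16 and 4.63 TPM in the Yap1 Taz null and at 45.8 to 64.1 TPM elsewhere. Uty, the fourth Y-linked gene measured, was at 10.6 and 20.0 TPM in the Yap1 Taz null and at 25.2 to 44.8 TPM elsewhere, and its departure of 0.22 was not called. None of 6 X-linked genes that escape inactivation was called, with a median departure of -0.34. Gm26992, a gene model that overlaps Xist on the opposite strand, was at 1392 and 1521 TPM in the Yap1 Taz null and at 15.4 to 34.5 TPM elsewhere. It was chosen after its values were seen. A difference in sex cannot be told apart from genotype in these libraries, and it enters every departure that rests on them, that of Klk1b22 and of the X-linked gene Mid1 included. Without genes on chromosomes X and Y, the calls were 54 higher and 39 lower, of which 33 cancelled and 29 were changed alike.

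**Figure D2:**
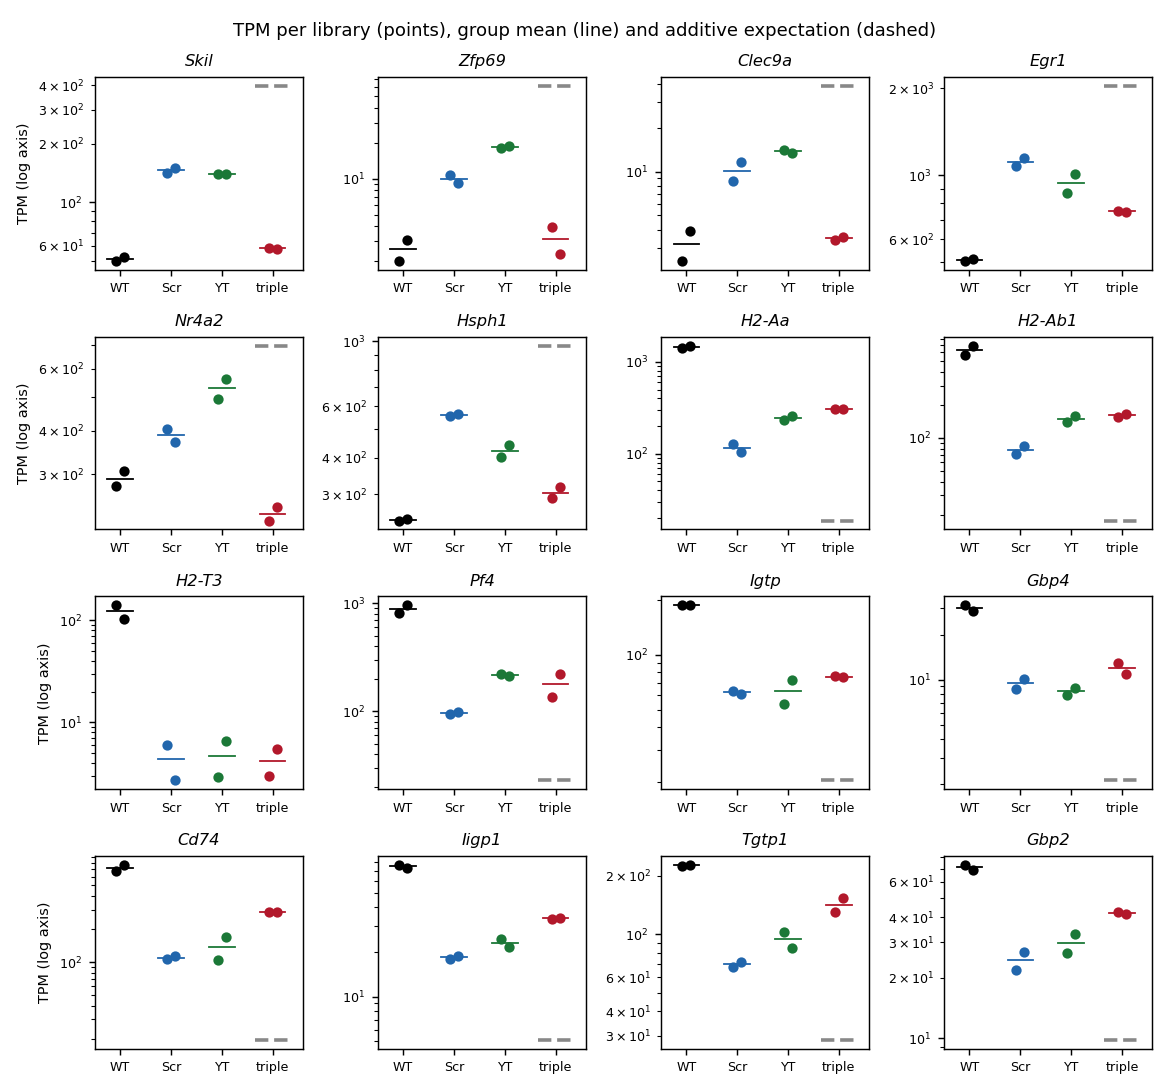
TPM on a log axis in wild type (WT), Scribble null (Scr), Yap1 Taz null (YT) and triple null for 16 named genes; points are libraries, short lines group means, and the dashed grey line the level additivity gives for the triple null (not drawn for H2-T3, where it is below 0). For Skil, Zfp69 and Clec9a the triple null sits near wild type. For H2-Aa, H2-Ab1, Pf4 and Igtp it sits well below wild type. For H2-Aa and Igtp both triple null libraries lie above those of both other nulls, as they do for Gbp4, Cd74, Iigp1, Tgtp1 and Gbp2.

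Of the 31 genes changed alike, 29 had both wild-type libraries above all 6 null libraries, a pattern that 4.87% of tested genes had, and 2 had both below (13.1%). The difference among the 3 nulls passed a limma F test for 1 of the 31, H2-Aa (adjusted p = 0.00596), against 0.324% of tested genes. The mean of the 3 nulls differed from wild type for all 31 (0.71% of tested genes higher and 0.691% lower). The class asks for similar changes past 1 in all 3 nulls, so these counts largely follow from how it was formed and are no further support. In the class 13 genes were protein-coding (84.0% of tested genes), 17 were pseudogenes, and 15 had a copy of nearly the same sequence. For 19 of them (1.72% of tested genes) the multiplied fold changes would have put the triple null below 0 TPM, where no measured value could have met additivity. The wild-type libraries enter all 3 changes from wild type, so the 3 changes of a gene are not independent of each other.

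The class II genes of the major histocompatibility complex, which present peptides to CD4+ T cells, held 3 of the calls among 13 measured genes of the pathway, all higher than additive. H2-Aa, an alpha chain, was at 1402 and 1507 TPM in wild type, 127 and 105 in the Scribble null, 234 and 258 in the Yap1 Taz null and 309.7 and 304 in the triple null. It fell in each null, by 3.64, 2.56 and 2.24 on the log2 scale, and departed by 3.97 (SE 0.18, limma adjusted p = 1.03e-04). The groups did not overlap, and the triple null was higher than the Scribble null (adjusted p = 0.00474) but did not differ from the Yap1 Taz null beyond the spread (adjusted p = 0.541). The beta chain gene H2-Ab1 followed at 567 and 693 TPM in wild type, 71.2 and 83.9 in the Scribble null, 139 and 159 in the Yap1 Taz null and 155 and 166 in the triple null, with a departure of 3.11 (SE 0.21, limma adjusted p = 4.57e-04). Cd74, the invariant chain that guides class II molecules to the endosome, was at 674 and 768 TPM in wild type, 106 and 113 in the Scribble null, 105 and 168 in the Yap1 Taz null and 284 and 289 in the triple null, and departed by 3.81 (SE 0.29, limma adjusted p = 7.81e-04). It fell in each null, by 2.71, 2.43 and 1.33 on the log2 scale, and its triple null libraries lay between wild type and the others. The list median was 0.78, with 11 of 13 above the median of all genes. H2-Ob, a chain of the class II chaperone DO, was on the other side, at 2.25 and 2.48 TPM in wild type and 9.04 to 17.7 TPM in the nulls, and its departure of -2.13 was not called. Markers of monocytes, macrophages and dendritic cells summed to 249 to 292 TPM in wild type and 224 to 334 TPM in the nulls, and B cell markers other than Ighm to 17.05 to 25.1 and 23.1 to 28.4 TPM. C1qa was listed at 0 in all libraries and Pax5 reached 0.392 TPM. Marker sums of 3 other cell types separated wild type from all null libraries, as did the genes changed alike. T and NK cell markers summed to 161 to 178 TPM in wild type and 91.5 to 143 TPM in the nulls, granulocyte and myeloid progenitor markers to 171.5 to 200.2 and 244 to 546 TPM, and endothelial and stromal markers to 123 to 132 and 146 to 174 TPM. Their part in these results was not tested.

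Class I and class I-like genes of the same complex were also called, and H2-T3 and H2-Q2 were nearly lost. H2-T3, a non-classical class I gene, was at 139.7 and 104 TPM in wild type and at 2.72 to 6.601 TPM in all 6 null libraries, a departure of 4.46 (SE 0.64, limma adjusted p = 0.0247). H2-Q2, another class I-like gene, was at 16.7 and 19.2 TPM in wild type and at 0.268 to 0.940 TPM in the nulls, and departed by 3.33. H2-D1, a classical class I heavy chain, was lower by about the same amount in each null, by 1.11, 1.17 and 1.16, and departed by 1.13 (SE 0.18, limma adjusted p = 0.047). H2-K1, another such chain chosen after its values were seen, was at 3423 and 3214 TPM in wild type and at 1725 to 1989 TPM in the nulls. It departed by 0.95 (SE 0.14, limma adjusted p = 0.0264). On chromosome 17, which holds 4.78% of the tested genes, 9 genes were called higher, 7 of them in the H2 complex. The class II pseudogene H2-Ea-ps, chosen after its values were seen, was at 49.5 and 64.3 TPM in wild type and at 0.133 to 1.09 TPM in the nulls. Mice of the C57BL/6 haplotype are known not to transcribe this gene because its promoter is deleted, whereas the labels give C57BL/6 for all 8 libraries. A difference in haplotype between wild-type and null animals was not tested, and cannot be told apart from genotype at this locus. Genes on other chromosomes had the same pattern. Gbp2b on chromosome 3 was at 15.3 and 14.4 TPM in wild type and at 0.209 to 0.448 TPM in the nulls. A difference in background between wild-type and null animals was not tested either. It would enter every departure, since the wild-type libraries do, and above all those of the genes changed alike.

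Pf4, the platelet chemokine CXCL4, was lower in all 3 nulls: 816 and 958 TPM in wild type, 94.9 and 98.9 in the Scribble null, 222 and 211 in the Yap1 Taz null and 135 and 222 in the triple null. The Scribble null libraries were the lowest and did not overlap those of the Yap1 Taz null, and the difference among the 3 nulls did not pass the limma F test (adjusted p = 0.146). Pf4 fell by 3.18, 2.02 and 2.34, and departed by 2.86 (SE 0.30, limma adjusted p = 0.0056). It was the 1 call among 19 measured megakaryocyte and platelet markers. The 19 other markers of that list summed to 1217 to 1219 TPM in wild type and 1193 to 1430 TPM in the nulls, Itga2b at 100.3 to 156 TPM, Gp1ba at 23.8 to 33.6 TPM, Gp6 at 0.127 to 0.399 TPM and Tubb1 at 0 to 2.18 TPM among them. Ncoa4, the ferritin receptor of autophagy, was the 1 named gene changed alike and higher, at 27.3 and 43.8 TPM in wild type, 152 and 145 in the Scribble null, 163 and 171 in the Yap1 Taz null and 77.8 and 107 in the triple null. It rose in the Scribble null and the Yap1 Taz null (adjusted p = 0.00644 and 0.00396), not past the threshold in the triple null (adjusted p = 0.0588), and departed by -2.94 (SE 0.33, limma adjusted p = 0.00804).

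Interferon-induced genes gave 11 calls among 49 measured, all higher than additive, with a list median of 0.31 and 39 of 49 above the median of all genes. All 11 were below wild type in both the Scribble null and the Yap1 Taz null, and in 10 the triple null lay between wild type and the nearer null. Most of them encode GTPases that act on vacuoles of intracellular microbes. Classical antiviral effectors of the list were not called and lay on both sides, with departures of -0.74 for Mx1, -0.05 for Isg15, 0.05 for Ifit1 and 0.21 for Rsad2, 4 genes chosen after their values were seen. Interferon-inducible class I processing genes outside the list were called as well, among them Psmb10 (1.53), a subunit of the immunoproteasome, and Psme1 (0.92), a subunit of its activator, both chosen after their values were seen.

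The p47 GTPase gene Igtp was at 187 TPM in both wild-type libraries, 63.6 and 61.3 in the Scribble null, 53.9 and 72.7 in the Yap1 Taz null and 76.2 and 75.5 in the triple null, a departure of 1.84 (SE 0.23, limma adjusted p = 0.014) with a fall in each null. Its neighbour Irgm2 was at 66.4 and 63.0 TPM in wild type, 28.5 and 32.8 in the Scribble null, 34.6 and 31.9 in the Yap1 Taz null and 45.4 and 54.7 in the triple null, a departure of 1.63 (SE 0.24, limma adjusted p = 0.029). By the size rule Igtp was changed alike and Irgm2 cancelled, but whether the 2 genes differ in this was not tested, and they share 7974 annotated bases on the same strand. Tgtp1, at 226 and 228 TPM in wild type, 68.1 and 72.1 in the Scribble null, 103 and 85.0 in the Yap1 Taz null and 131 and 154 in the triple null, departed by 2.28 (SE 0.21, limma adjusted p = 0.00251). Tgtp1 and Tgtp2 are near-identical, and with their values summed the departure was 2.09 (limma adjusted p = 9.83e-04). Gbp2, a guanylate-binding protein, was at 73.0 and 68.8 TPM in wild type, 21.9 and 26.9 in the Scribble null, 26.6 and 32.9 in the Yap1 Taz null and 42.6 and 41.4 in the triple null, a departure of 2.00 (SE 0.26, limma adjusted p = 0.0169). In Irgm2, Tgtp1 and Gbp2 every triple null library lay between the wild-type libraries and those of both other nulls, and no difference of the triple null from another null passed the test.

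The interferon-stimulated response element, the DNA site of interferon-activated factors, was found among cancelling genes and genes changed alike. It was searched as GAAA, any 2 bases and GAAA again, on both strands in the 250 bases before each start in RefSeq (GRCm38.p6), where 10561 of the 16064 genes had a window and 3.48% of these held a match. Of the 7 called interferon-induced genes with a window, 5 held it (71.4%), as did 8 of 26 genes called higher (30.8%) and 2 of 25 called lower (8.0%). The 5 are Gbp2, Igtp, Irgm2, Tgtp1 and Tgtp2, and they are among the 8. Igtp and Irgm2 have nearly the same sequence there, and Tgtp1 and Tgtp2 are near-identical genes, so the 5 are not separate cases. By class, 4 of 9 genes changed alike with a window held it (44.4%), and 4 of 24 cancelling genes (16.7%). The share among interferon-induced genes that were not called was not computed. The sequences below are shown because they place the same element in Igtp and Gbp2b, changed alike, and in Irgm2 and Tgtp1, which cancelled. They run 5′ to 3′ on the strand of the gene, with the match in capitals, and all are intergenic or within an intron of the annotation.
Igtp, chr11:58199436-58199555, plus strand, changed alike: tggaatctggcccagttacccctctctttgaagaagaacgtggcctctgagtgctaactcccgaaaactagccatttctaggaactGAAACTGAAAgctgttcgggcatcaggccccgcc
Irgm2, chr11:58214857-58214976, plus strand, cancelling: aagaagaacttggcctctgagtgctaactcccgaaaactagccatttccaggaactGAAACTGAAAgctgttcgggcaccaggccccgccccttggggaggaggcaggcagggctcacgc
Tgtp1, chr11:48992259-48992378, minus strand, cancelling: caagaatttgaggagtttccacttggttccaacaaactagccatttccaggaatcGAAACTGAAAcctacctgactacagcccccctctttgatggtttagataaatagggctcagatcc
Gbp2b, chr3:142594655-142594774, plus strand, changed alike: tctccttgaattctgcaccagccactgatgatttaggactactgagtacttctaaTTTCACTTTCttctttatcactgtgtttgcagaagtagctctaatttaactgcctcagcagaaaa
Aligned on the match, Igtp and Irgm2 were identical at 87 of 90 bases (96.7%), and Irgm2 and Tgtp1 at 55 of 119 (46.2%). A match is a description of letters and does not show binding. The promoter of H2-Aa held no such match but an inverted CCAAT box, a motif that 40.7% of the windows held on either strand, and it is shown as the gene with the smallest adjusted p among the named genes.
H2-Aa, chr17:34287824-34287943, minus strand, changed alike: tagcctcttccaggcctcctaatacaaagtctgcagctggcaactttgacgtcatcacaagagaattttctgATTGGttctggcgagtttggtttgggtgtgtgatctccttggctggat
Among the immediate early genes called lower, 4 had a window, and none of the 4 held the AP-1 site TGANTCA, which 5.66% of all windows held.

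**Figure D3:**
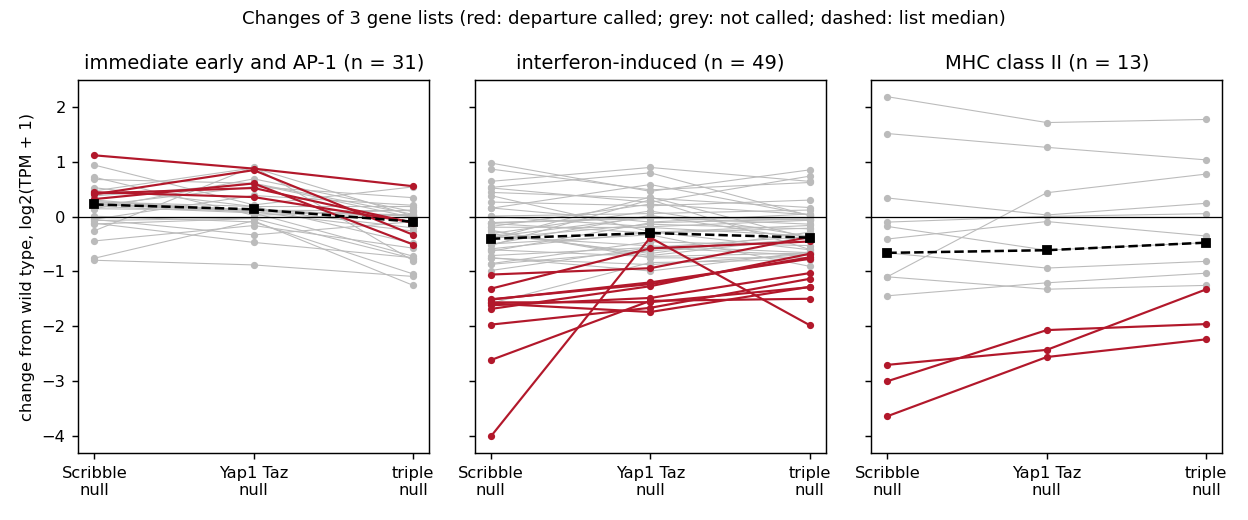
Change from wild type in log2(TPM + 1) in each null genotype for the measured genes of 3 lists, 1 line per gene, red where the departure was called and grey where it was not, with the list median as a dashed black line. The 5 called immediate early genes are above 0 in both other nulls and lower in the triple null, and the 11 called interferon-induced genes are below 0 in all 3.

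Some lists without a single call lay mostly to 1 side of the median of all genes, while others, such as the polarity genes with 13 above and 14 below, were split evenly. Of 44 genes of oxidative phosphorylation, 41 were above it, with a median departure of 0.61 and list medians of -0.46, -0.32 and -0.21 for the changes of the Scribble null, the Yap1 Taz null and the triple null. Cox5a, a subunit of cytochrome c oxidase, was at 212 and 218 TPM in wild type, 153 and 139 in the Scribble null, 129 and 116 in the Yap1 Taz null and 153 and 169 in the triple null, and its departure of 0.95 did not pass (adjusted p = 0.0734). Cytosolic ribosomal proteins had 69 of 77 above the median of all genes and a median departure of 0.30, and quantile normalization left 54 of 77. The G1/S list had 39 of 43 members above it, with a median of 0.36, and the G2/M list 28 of 34, with a median of 0.20. Members of a list share libraries and are not replicates, so these counts carry no test.

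Genes of the deleted pathways gave no call. None of 24 Hippo cascade genes, 27 polarity genes or 16 Yap1 Taz target genes was called, with median departures of -0.29, -0.25 and -0.54. Cyr61, a secreted matrix protein and a standard Yap1 Taz target, was at 30.7 and 35.2 TPM in wild type, 24.96 and 21.3 in the Scribble null, 31.9 and 28.1 in the Yap1 Taz null and 9.85 and 6.50 in the triple null. It fell in the triple null by 1.91 (adjusted p = 0.0143), and its departure of -1.28 did not pass (adjusted p = 0.162). By size it had the pattern of a change in the triple null alone, which 370 genes had and in which both calls, Gm10093 and Gm14620, were pseudogenes. Of 40 stem cell identity genes, Egr1 was the 1 call, and the list median of -0.10 was near that of all genes.

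**Figure D4:**
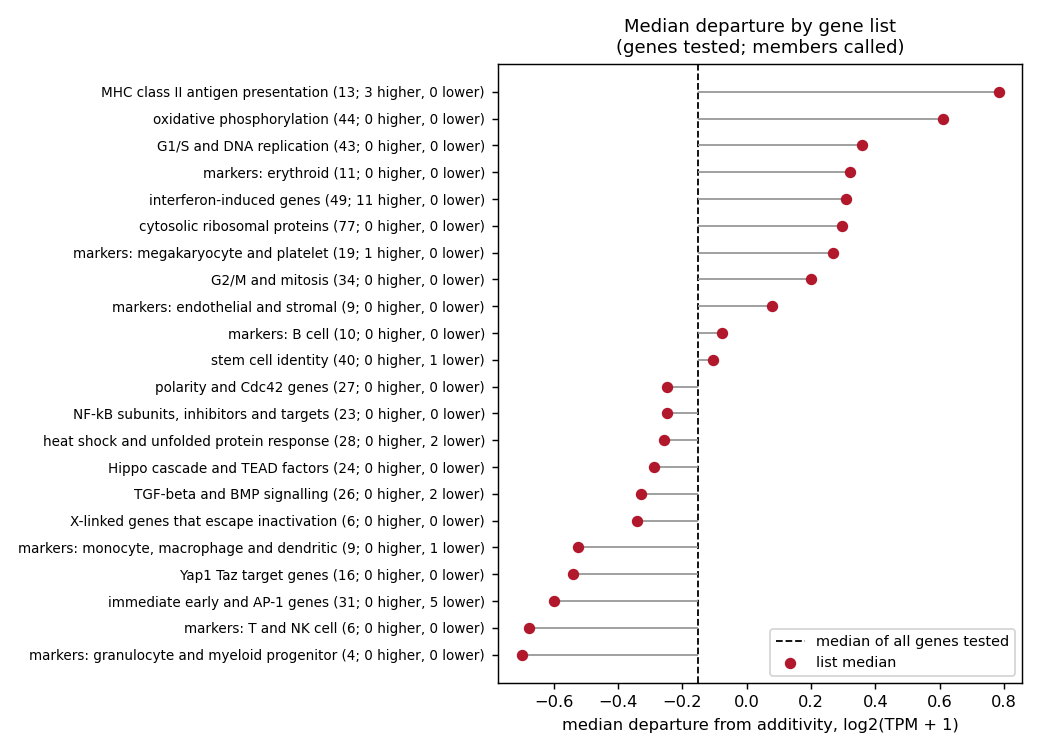
Median departure in log2(TPM + 1) of each gene list (red points) beside the median of all 16064 genes (dashed line at -0.15), with the number of genes measured and called in brackets. MHC class II, oxidative phosphorylation and interferon-induced genes lie to the right and immediate early genes and Yap1 Taz targets to the left.

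Pseudogenes and genes with near-identical copies held the largest departures and are the least certain. Of the 102 called genes 30 were pseudogenes, where 12.6% of tested genes are, and 31 had a near-identical copy, against 7.59%. Gm6768, the largest departure at 9.34, was at 75.3 and 79.7 TPM in wild type, 1.46 to 2.03 TPM in the Scribble null and the Yap1 Taz null, and 66.8 and 47.6 TPM in the triple null. Rps13-ps1, a processed copy of a ribosomal protein gene, was at 829.9 and 849.6 TPM in wild type and at 9.37 to 16.7 TPM in all null libraries. Both were chosen after their values were seen. With the values of near-identical copies summed, the median size of the departure over the 31 genes went from 5.05 to 1.24, 15 were still called, and 5 changed sign. The histone gene Hist1h4b kept its sign but not its call, and its departure went from 5.41 to 1.19 (limma adjusted p = 0.156).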

How the data were processed

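The 8 libraries were made from RNeasy-purified RNA by Ovation v2 amplification and Nextera XT, per the labels' protocols. The authors deposited 1 table of TPM per library, per the file headers; the submitters' processing notes name TopHat and mm10, while the quantifier, and how it treated reads with several matches, is not given in the sources used here. Another deposited table, of the whole series, holds signal values of an unnamed unit for 28987 identifiers, of which 27458 (94.725%) matched a symbol; it served as an alternative. All value columns were matched to samples by name.

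log2(TPM + 1) was fitted with limma 3.58.1 in R 4.3.3, 1 mean per group and a mean-variance trend, with 4 residual and 4.002 prior degrees of freedom. P-values are two-sided and adjusted by Benjamini-Hochberg over 16064 genes, and calls are under 0.05. Fold changes on this scale understate low genes, and a value of 0 can be a failed estimate. Genes with a near-identical copy (at least 95% identity over 80% of a transcript, BLAST 2.17.0, GENCODE M21) are uncertain. Alternatives were other pseudocounts, filters, scalings and size limits, no variance trend, a replicate block, summed copies, the table of the whole series and each library left out.

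Named genes are the targeted genes, the 12 largest called departures per direction, up to 10 per class and up to 4 per list, without pseudogenes and unnamed models; some are not reported here, and others are said to be chosen after their values were seen. Members, classes and lists were chosen with earlier results of these data known. The motif CRE was searched after the data were seen.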

Additional observations from a re-analysis of the deposited data

Results flagged for a closer look

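The departure compares the change with Scribble loss between libraries labelled with and without Yap1 and TAZ. Named genes called for it are given here by that difference (limma, adjusted p under 0.05). Among genes lower in all 3 nulls it was 5.41 for Hist1h4b, 4.46 for H2-T3, 3.97 for H2-Aa, 3.81 for Cd74, 3.65 for Gbp2b, 3.33 for H2-Q2, 3.11 for H2-Ab1, 3.04 for Serpina3f, 2.86 for Pf4, 2.50 for Iigp1, 2.04 for Gbp4, 1.95 for Tgtp2 and 1.84 for Igtp. Ncoa4, higher in all 3 nulls, had -2.94. Where a gene changed alike in all 3 nulls, the departure is a difference between wild type and everything else. For Hist1h4b, H2-T3, Gbp2b and H2-Q2 the multiplied fold changes fell below 0 TPM, which no measured value could have met. Hist1h4b was not called with near-identical copies summed.

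Among genes that cancelled in the triple null, the difference was 3.02 for Guca1a, 2.28 for Tgtp1, 2.00 for Gbp2, 2.50 for Gdpd3, 1.63 for Irgm2 and 1.44 for Ifi47, all below wild type in at least 1 null. It was -3.95 for Zfp69, -3.15 for Clec9a, -2.75 for Skil, -2.59 for Bmpr1a, -1.66 for Hsph1, -1.62 for Pim2, -1.53 for Chek2, -1.44 for Egr1 and -1.44 for Dnajb6. Bmpr1a is in this class narrowly, since its triple null was still 0.97 above wild type, just under the size limit of 1. Genes past the size limit of 1 above wild type in the Yap1 Taz null alone had -5.86 for Klk1b22, -2.09 for Zfp949, -1.78 for Sgip1, -1.33 for Slc38a6, -1.32 for Aspscr1 and -1.06 for Chd9. The Y-linked genes had 3.29 for Eif2s3y, 2.95 for Kdm5d and 2.86 for Ddx3y, where a difference in sex cannot be told apart from genotype.

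Zfp990 turned below wild type in the triple null, with -2.97. Genes in none of the classes had -1.78 for Mid1, -1.76 for Bhlhe40, -1.59 for Nr4a2, -1.44 for Btg2, -1.15 for Hspa1a and -1.06 for Nr4a1.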

How the results depend on the processing

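With each library left out in turn, calls ran from 32 to 79 higher, 12 to 49 lower, 17 to 64 cancelling, 19 to 24 changed alike and 0 to 6 in the triple null alone; the lone library of a group was then assumed to vary like the others. Calls lower than additive were 26 with no filter, 71 with a mean of at least 5 TPM, 26 with median-ratio scaling, 19 without the variance trend, and 27 with the replicate number as a block, which gave 48 higher. The numbers do not pair the libraries: deviations of same-numbered libraries correlated between -0.053 and 0.026 across genes. Cancelling calls were 25 with no filter. The table of the whole series gave 39 higher and 18 changed alike. Calls in the triple null alone numbered 1 with a pseudocount of 0.1, a mean of at least 5 TPM, copies summed, or without chromosomes X and Y (an alternative added after seeing the data), and 0 with a size limit of 0.5. Of the 48 named called genes, 16 stayed called without each library in turn, and none changed direction under a setting that measured it, which left 44 with a mean of at least 5 TPM and 47 in the table of the whole series. With 2 libraries per group and no depth in TPM, small departures of single genes are not detectable, and a gene that was not called is not shown to be additive.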

Other observations

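Ighm, the heavy chain of IgM, was at 234 TPM in triple null 1 and at 1.92 to 8.75 TPM in the 7 other libraries. Its departure of 3.28 (SE 1.77) was not called with limma (adjusted p = 0.436), and the B cell markers other than Ighm summed to 17.05 to 28.4 TPM over all libraries.

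Ifi44l, an interferon-induced gene chosen after its values were seen, was near its wild-type level in the Yap1 Taz null and far below it in the Scribble null. It was at 35.2 and 33.4 TPM in wild type, 1.29 and 1.09 in the Scribble null, 25.7 and 26.5 in the Yap1 Taz null and 8.51 and 7.39 in the triple null. Both triple null libraries lay between those of the other nulls. The triple null was higher than the Scribble null (limma adjusted p = 0.0135), and its difference from the Yap1 Taz null did not pass (adjusted p = 0.053).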
